A study of Mus musculus with 6 samples.

Results

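The interferon regulatory factor (IRF) and signal transducer and activator of transcription (STAT) genes described here are Irf1, Irf2, Irf3, Irf7, Irf8, Irf9, Stat2 and Stat3. They were taken by symbol from a list of IRF and STAT genes, by a rule that uses symbols alone. They make up 8 of the 12107 genes in the read count table, and 24 of its 36321 regions. Each gene has a promoter region around the transcription start site (TSS), a gene body, and a TES region that runs past the transcription end site (TES). All 24 were measured in every library and all entered the tests.

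RNA polymerase II (Pol II) on chromatin was measured by ChIP-seq of POLR2A, its largest subunit, precipitated through the N-terminal end of the protein. The libraries were 3 from Armc5 knockout (KO) and 3 from wild-type (WT) mouse neural precursor cells (NPCs), numbered 1 to 3 as replicate pairs. The question was whether cells without ARMC5, the substrate receptor of a ubiquitin ligase that acts on POLR2A, carry more or less Pol II at these genes. KO cells were Armc5(-/-), a germline loss present in every cell of the fetus, and WT cells carried the normal gene. Both genotypes are labelled as 129 sv X CD1, and both were e13.5 ganglionic eminence cells grown with epidermal growth factor as second-passage neurospheres. The labels name no treatment with interferon. The labels do not say whether a culture came from a single fetus or from pooled fetuses. The tests were blocked on the pair, so their p-values measure how the difference between KO and WT cultures varied from pair to pair.

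IRFs and STATs carry signals from cytokine receptors and from sensors of foreign nucleic acid to the genome. Type I interferon activates the kinases JAK1 and TYK2, which phosphorylate STAT2, and STAT2 and IRF9 are parts of ISGF3, a complex that binds the interferon-stimulated response element (ISRE). STAT homodimers bind a different palindrome, the gamma-activated site (GAS). IRF3 and IRF7 switch on interferon genes after nucleic acid sensing, IRF1 activates and IRF2 opposes many interferon targets, and IRF8 is best known as a regulator of myeloid cells and B cells. STAT3 acts downstream of gp130 receptors, and in neural precursors it is known for promoting astrocyte fate.

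The promoters of these genes are themselves known to be read by STATs and IRFs. The motif-bearing stretches are therefore printed, with 15 bases on each side where the window reaches that far. They come from RefSeq windows of GRCm38.p6 that run from 250 bases before to 50 after a start site. The capitals mark GAS (TTCNNNGAA) or ISRE core (GAAANNGAAA) letters, searched on both strands, and in Stat2 the ISRE core is on the reverse strand.
Irf1 (chr11:53769909-53769947, plus strand): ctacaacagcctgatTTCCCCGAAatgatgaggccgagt
Irf2 (chr8:46739495-46739544, plus strand): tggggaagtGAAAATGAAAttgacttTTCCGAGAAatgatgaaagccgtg
Irf8 (chr8:120736172-120736228, plus strand): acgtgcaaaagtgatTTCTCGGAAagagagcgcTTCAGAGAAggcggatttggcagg
Stat2 (chr10:128270261-128270300, plus strand): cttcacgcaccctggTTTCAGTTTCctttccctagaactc
All 8 genes matched a RefSeq window, 11 windows in all. Irf8 had a pair of GAS matches, beginning 171 and 153 bases before its start site. Irf1 had a GAS match 90 bases before its start, and Irf2 a GAS at 224 and an ISRE core at 241 bases before. The windows of Irf3, Irf7, Irf9 and Stat3 held neither set of letters. Of the 32851 RefSeq windows of this length, 8.3% held the GAS letters and 3.44% the ISRE core letters. A match is a string of letters and was not tested for binding.

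Total counts over the 3 regions ranged from 16056262 to 25199455 in KO libraries and from 14528870 to 23808344 in WT libraries. Promoters took 6.88% to 12.2% of the counts in KO libraries and 6.04% to 11.2% in WT libraries, with the lowest share in replicate 3 of each genotype. WT replicate 3 stood apart in its Y-linked signal, at 0.619 CPM (counts relative to the library's scaled total). The other 5 libraries held 124 to 234 CPM, with KO replicate 3 at 124 CPM. Pair 3 therefore differed in Y-linked signal, a mark of sex, as well as in genotype, and these cannot be told apart within that pair. All 8 genes lie on autosomes, but autosomal genes can also differ by sex, and an effect of sex on them was not tested. Counts of Armc5 itself were not analysed here, which leaves the genotype unchecked on that gene. Of 15 neural precursor markers 13 were measured, with a median gene body level of 55.1 CPM. The median was 54.4 CPM for neuronal, 62.4 CPM for oligodendrocyte lineage and 14.5 CPM for astrocyte markers, and 36.5 CPM over all genes. These levels are not divided by gene length and do not tell the cell types apart. All other levels are TMM-scaled CPM, counts relative to the library's scaled total. They relate each region to its own library, so a shift common to the whole genome would not show. In bulk cultures, a different share of cells of some type and a different amount of Pol II per cell cannot be told apart.

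No region of the 8 genes passed the test. The limma-voom fit over all 36321 regions, blocked on the replicate pair and with adjusted p under 0.1 as the threshold, called 0 of their 24 regions, against 0.173% of all promoters, 0.206% of all gene bodies and 0.0248% of all TES regions. At an unadjusted limma p under 0.05, 2 of their promoters were higher in KO and 0 were lower, where 7.55% and 2.4% of all promoters were. Of their gene bodies, 2 were higher and 1 was lower, where 4.82% and 3.59% of all gene bodies were. Of their TES regions, 1 was higher and 0 were lower, where 1.4% and 4.84% of all TES regions were. The 8 genes therefore held 5 higher regions and 1 lower region at that level, and 3 of the 5 belonged to Irf8 and 2 to Irf1. The edgeR quasi-likelihood test also called 0 regions and put 5 higher and 0 lower at p under 0.05, while DESeq2 called 1, the Irf8 gene body, and put 2 higher and 0 lower.

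The median log2 fold change of KO against WT was 0.24 over the 8 promoters, -0.01 over the gene bodies and -0.13 over the TES regions. Over all 12107 genes the medians were 0.03, -0.01 and -0.08. Agreement over the 3 pairs was scattered. Among the 8 promoters, 1 was higher in KO in all 3 pairs and 2 were lower, against 18.1% and 13.3% of all promoters. Among the gene bodies it was 2 higher and 2 lower, against 13.7% and 16.9%. Among the TES regions it was 2 higher and 1 lower, against 7.98% and 20.6%.

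**Figure D1:**
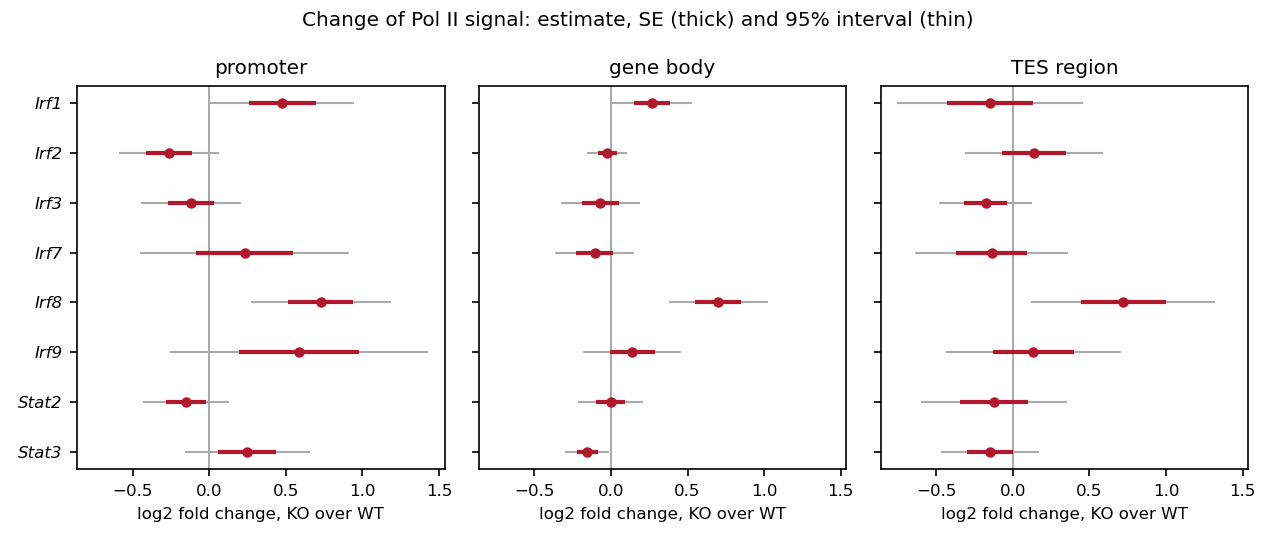
Log2 fold change of Pol II signal, KO over WT, in the promoter, gene body and TES region of each of the 8 genes, with the SE as thick bars and the 95% interval of the limma-voom fit as thin bars, and a line at 0. Irf8 lies furthest to the right in each region, between 0.70 and 0.73, and all gene bodies except that of Irf8 lie between -0.15 and 0.27.

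Irf8 held the most Pol II in KO relative to WT among the 8 genes, in each of its 3 regions, none of which passed the threshold. The gene lies on the plus strand of chromosome 8, from 120736358 to 120756694 (GRCm38, GENCODE vM21). Its gene body carried 18.9, 23.9 and 22.02 CPM in KO replicates 1 to 3, against 8.06, 15.6 and 18.3 CPM in the WT replicates. Every KO library lay above every WT library, a pattern of 1.5% of all gene bodies. The raw counts behind it were 526, 498 and 311 reads in KO and 165, 394 and 225 in WT. The level was 1.63-fold higher in KO (log2 fold change 0.70 ± 0.15, SE, 95% interval 0.38 to 1.02), with a limma p of 0.000419 that came to 0.149 after adjustment over all regions. The pairs were unequal, with log2 differences of 1.23, 0.61 and 0.27 in pairs 1, 2 and 3.

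The Irf8 promoter carried 13.9, 11.3 and 4.39 CPM in KO replicates 1 to 3, against 5.13, 9.65 and 3.33 CPM in the WT replicates. KO was the higher of each pair, but the groups overlapped, and replicate 3 was the lowest of its genotype, as it was in promoter share. The genotypes differed by a log2 fold change of 0.73 ± 0.21 (SE, limma adjusted p = 0.352), and by pair it was 1.43, 0.23 and 0.40. The Irf8 TES region carried 1.98, 1.77 and 1.63 CPM in KO and 1.03, 1.03 and 1.30 CPM in WT. Here too no KO library reached down to a WT library, as in 0.809% of all TES regions, with a log2 fold change of 0.72 ± 0.28 (SE, limma adjusted p = 0.519). No promoter of the 8 genes separated the genotypes in this way, where 2.24% of all promoters did.

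Whether the Irf8 gene body was called turned on which pair was left out. Without pair 1 its log2 fold change was 0.49 (limma adjusted p = 0.0783), and without pair 3 it was 0.89 (limma adjusted p = 0.00212), both past the threshold. Without pair 2 it was 0.77 with a limma adjusted p of 0.588. Leaving out only KO replicate 1 or WT replicate 1 gave 0.48 each (limma adjusted p = 0.0361 and 0.0375), and leaving out only KO replicate 3 or WT replicate 3 gave 0.88 each (limma adjusted p = 0.00106 and 0.00105). With the pair block, a library without its partner drops out of the comparison of genotypes. These runs therefore nearly repeat the runs without the pair and cannot single out a library. The promoter had a log2 fold change of 0.27 without pair 1, and reached a limma adjusted p of 0.0604 without pair 3 and of 0.0425 and 0.0427 without KO or WT replicate 3. DESeq2 gave the gene body an adjusted p of 0.0986. All 3 Irf8 regions also lie inside a long overlapping model on the same strand, Gm20388, so reads in them cannot be assigned to 1 of these annotations.

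**Figure D2:**
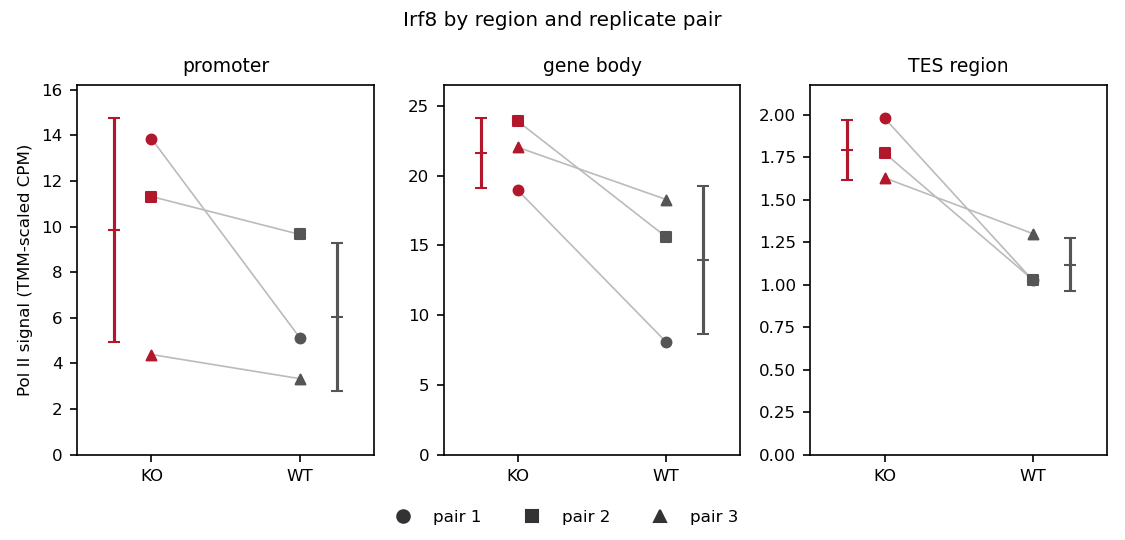
Pol II signal of Irf8 (TMM-scaled CPM, from 0) in its promoter, gene body and TES region, with KO libraries left of WT libraries in each panel, a marker shape and a joining line for each pair, and the mean and SD of 3 libraries at the sides. In the gene body the 3 KO libraries sit between 18.9 and 23.9 CPM, above the WT libraries at 8.06 to 18.3 CPM, while in the promoter the genotypes overlap.

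Irf8 is a gene of microglia and blood cells, and those markers were looked at beside it. Of 22 listed microglia and blood cell markers 2 were in the table, Cd68 and Fcer1g, and 20 were not analysed here, among them Csf1r, Cx3cr1, Itgam, Ptprc, Spi1 and Aif1. Their summed gene body level ranged from 15.7 to 31.4 CPM in KO libraries and from 15.6 to 42.1 CPM in WT libraries. The gene body log2 fold change was -0.13 ± 0.17 for Cd68, a lysosomal protein, and -0.11 ± 0.16 for Fcer1g, an immunoglobulin receptor subunit (SE, limma adjusted p = 0.877 and 0.893). Both estimates lay within their SE of 0. KO was higher in 2 of 3 pairs for Cd68 and in 1 of 3 for Fcer1g, so neither gene gives a direction. Their part in the Irf8 result was not tested.

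The gene bodies whose levels most resembled the Irf8 gene body over the 6 libraries were Stard4 (Pearson r = 0.997), Zscan22 (r = 0.984) and Eri1 (r = 0.979), among 12006 gene bodies with a mean of at least 50 counts. For the Irf8 promoter they were Rsl1d1 (r = 0.992), Hist1h2ae (r = 0.990) and 1700056E22Rik (r = 0.989), among 9230 promoters. With 6 points that share their libraries and pairs, and a choice from so many regions, these are descriptions only.

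Irf1 and Irf2 bind the same kind of element with opposite effects on many targets. The Irf1 gene body (plus strand of chromosome 11, 53770014 to 53778374) carried 12.5, 14.8 and 17.7 CPM in KO replicates 1 to 3, against 10.3, 13.1 and 13.7 CPM in the WT replicates. KO was higher in each pair while the groups overlapped, with a log2 fold change of 0.27 ± 0.12 (SE, limma adjusted p = 0.595). Its promoter carried 5.83, 4.70 and 6.02 CPM in KO and 3.47, 5.10 and 2.84 CPM in WT, higher in 2 of 3 pairs, with a log2 fold change of 0.48 ± 0.22 (SE, limma adjusted p = 0.599). Leaving out a pair or a library moved it between 0.30 and 0.89, lowest without KO or WT replicate 3 and highest without pair 2. The Irf1 TES region held 1.30, 0.959 and 3.26 CPM in KO and 1.12, 1.78 and 2.92 CPM in WT, a difference within the spread of either group (log2 fold change -0.15 ± 0.28). The Irf1 gene body overlaps the model Gm17334 on the opposite strand, so its reads cannot all be assigned to Irf1.

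Irf2 (plus strand of chromosome 8, 46739732 to 46847458) had the most gene body reads of the 8 genes. Its gene body carried 115, 122 and 152 CPM in KO replicates and 126, 117 and 152 CPM in WT replicates. The log2 fold change was -0.02 ± 0.06, with a 95% interval of -0.16 to 0.11, so a change of the size estimated for Irf8 lies outside it. The Irf2 promoter was lower in KO in all 3 pairs, at 7.05, 5.95 and 4.53 CPM in KO and 8.84, 6.73 and 5.52 CPM in WT, but the groups overlapped (log2 fold change -0.26 ± 0.15, SE, limma adjusted p = 0.681). Its TES region was higher in KO in all 3 pairs by a small margin, at 2.48, 2.40 and 3.40 CPM in KO and 2.39, 2.18 and 2.84 CPM in WT (log2 fold change 0.14 ± 0.21, SE, limma adjusted p = 0.895). On the opposite strand, the Irf2 promoter overlaps Gm16675, and the gene body overlaps Gm45479, Gm31172 and Gm45481. Reads there cannot all be assigned to Irf2.

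Irf3 and Irf7 encode the factors that respond to nucleic acid sensing. The Irf3 gene body (plus strand of chromosome 7, 44997648 to 45002848) carried 21.2, 16.3 and 17.3 CPM in KO replicates and 22.9, 19.5 and 13.6 CPM in WT replicates (log2 fold change -0.07 ± 0.12). Its promoter carried 10.2, 7.15 and 3.40 CPM in KO and 9.96, 7.91 and 4.71 CPM in WT (log2 fold change -0.12 ± 0.15). These regions overlap Bcl2l12 on the opposite strand, and the Irf3 TES region overlaps Scaf1, so their reads cannot be assigned to 1 gene. That TES region was lower in KO in each pair, at 9.57, 6.28 and 6.23 CPM in KO against 11.3, 6.96 and 6.66 CPM in WT (log2 fold change -0.18 ± 0.14, SE, limma adjusted p = 0.783). The Irf7 gene body (minus strand of chromosome 7, 141262706 to 141266481) was slightly lower in KO in each pair, at 14.7, 10.6 and 10.5 CPM in KO and 16.1, 11.6 and 10.9 CPM in WT (log2 fold change -0.11 ± 0.12, SE, limma adjusted p = 0.848). Its promoter held little signal, 1.48, 0.767 and 0.991 CPM in KO and 1.03, 0.831 and 0.894 CPM in WT. Its TES region, shared with Phrf1, held 2.74, 3.02 and 3.40 CPM in KO and 4.40, 2.69 and 2.60 CPM in WT.

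Stat2 and Irf9 encode parts of ISGF3. The Stat2 gene body (plus strand of chromosome 10, 128270559 to 128292849) carried 20.4, 25.3 and 32.9 CPM in KO replicates and 21.6, 26.5 and 29.1 CPM in WT replicates. The estimate lay within 0.01 of 0 on the log2 scale, with an SE of 0.10. The Stat2 promoter was lower in KO in all 3 pairs, at 13.53, 11.7 and 3.47 CPM in KO and 13.9, 13.6 and 4.47 CPM in WT, with wide overlap (log2 fold change -0.15 ± 0.13, SE, limma adjusted p = 0.80). As for Irf8, the lowest value of each genotype was in replicate 3. The Irf9 gene body (plus strand of chromosome 14, 55603571 to 55610030) carried 14.9, 9.78 and 9.42 CPM in KO and 10.7, 11.0 and 9.34 CPM in WT (log2 fold change 0.14 ± 0.15). Irf9 had the lowest promoter signal of the 8 genes, 1.01, 0.911 and 0.637 CPM in KO and 0.391, 0.673 and 0.731 CPM in WT (log2 fold change 0.59 ± 0.39, SE, limma adjusted p = 0.737). The Irf9 promoter and gene body overlap Rnf31 on the same strand. The nearest RefSeq start of Irf9 lies 414 bases from its GENCODE start, and the sources used here do not give which of them the counted promoter follows.

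Stat3 (minus strand of chromosome 11, 100885098 to 100939540) was the member with a lower gene body at unadjusted p under 0.05. It carried 82.7, 86.5 and 107 CPM in KO replicates, against 98.0, 98.1 and 108 CPM in the WT replicates. KO was lower in each pair and the groups overlapped, with a log2 fold change of -0.15 ± 0.07 (SE, limma adjusted p = 0.590). The Stat3 promoter had the other sign, at 5.22, 5.75 and 4.53 CPM in KO and 5.57, 4.55 and 2.60 CPM in WT (log2 fold change 0.25 ± 0.19, SE, limma adjusted p = 0.772), and it ranged from 0.12 without KO or WT replicate 3 to 0.49 without KO or WT replicate 1. Its TES region, which overlaps Stat5a, carried 7.81, 6.62 and 6.37 CPM in KO and 7.67, 7.83 and 7.72 CPM in WT.

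**Figure D3:**
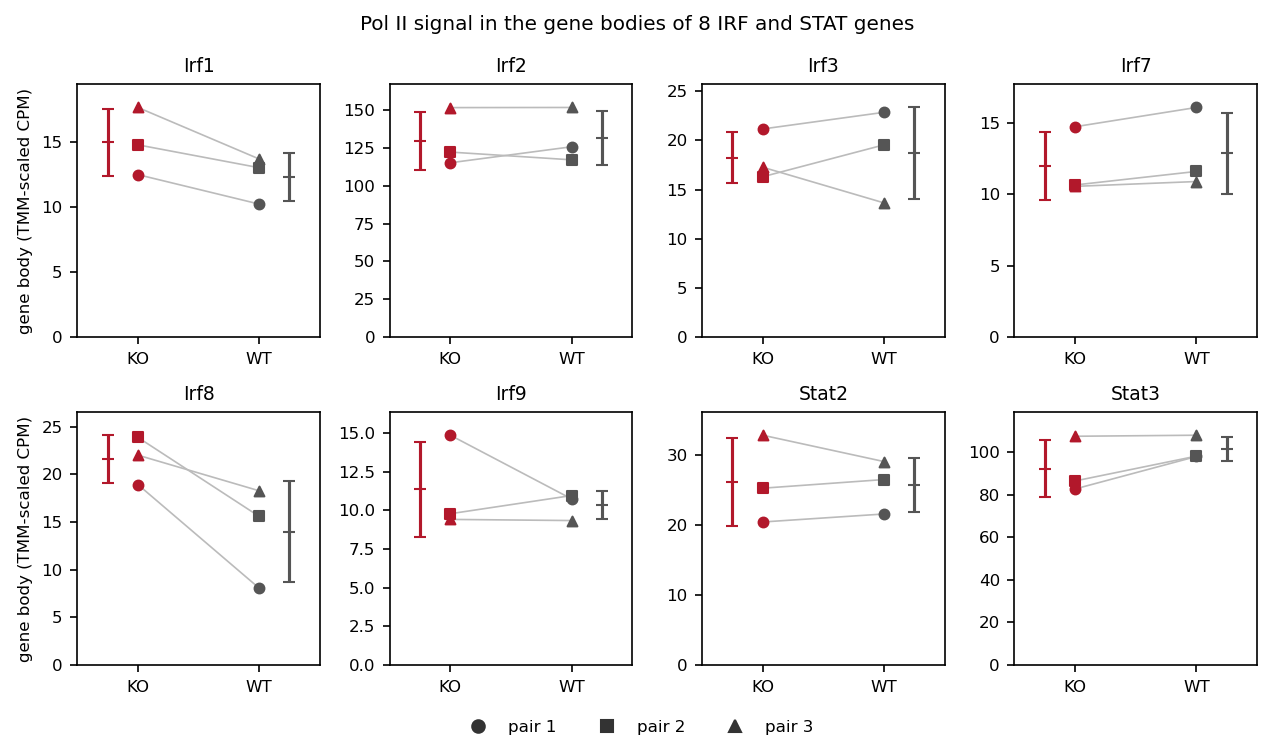
Gene body Pol II signal (TMM-scaled CPM, from 0, with its own scale in each panel) of the 8 genes, with KO libraries left of WT libraries, a marker shape and a joining line for each pair, and the mean and SD of 3 libraries at the sides. The KO points of Irf8 all lie above its WT points, and the groups overlap for every other gene.

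Promoter against gene body signal within a library gives the pausing index, here the log2 ratio of their counts. It does not depend on the scaling between libraries. The limma test called 0 of the 8 genes, against 0.0331% of all 12096 genes tested, and 0 had an unadjusted p under 0.05, against 10.7%. Under 5 of the 7 alternatives 1 of the members tested reached that level, with 0 called: Stat3 under 3 of them, and Irf1 and Irf9 under 1 each. For Irf8 the index differed by -0.02 ± 0.19 on the log2 scale (SE, 95% interval -0.43 to 0.39), so its promoter and gene body estimates moved by like amounts. For Stat3 the index was higher in KO in all 3 pairs, by 0.49 ± 0.23 (95% interval -0.01 to 0.99, limma adjusted p = 0.477). The other differences ranged from -0.24 for Irf2 to 0.41 for Irf9.

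Per base, the 8 genes spread over nearly the whole range of promoter to gene body ratios. The ratio was 18.9 ± 10.7 in KO and 19.3 ± 10.3 in WT for Irf8, and 18.2 ± 12.5 in KO and 19.4 ± 11.2 in WT for Stat2 (SD, n = 3 each), which put them at the 88.2 and 85.2 percentiles of 11831 genes. Irf2 followed at 10.1 ± 3.39 in KO and 11.8 ± 3.67 in WT, and these 3 genes could not be ordered beyond their spread. Irf1 (6.13 ± 1.30 in KO, 5.12 ± 1.53 in WT), Stat3 (6.05 ± 1.38 in KO, 4.49 ± 1.75 in WT) and Irf3 (3.73 ± 1.53 in KO, 3.96 ± 0.454 in WT) overlapped one another and lay below the median of 6.79. At the bottom were Irf9, at 0.918 ± 0.171 in KO and 0.717 ± 0.256 in WT, and Irf7, at 0.566 ± 0.0910 in KO and 0.465 ± 0.0636 in WT, so their promoters carried less signal per base than their gene bodies.

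Compared per kilobase, promoter levels of Irf8 (19.7 CPM per kb in KO, 12.1 in WT) and Stat2 (19.2 in KO, 21.3 in WT) led the list in KO, ahead of Irf3, Irf2, Irf1 and Stat3, while in WT Stat2 led and Irf8 lay behind Irf3 and Irf2. Neighbours in the KO order lay within the SD of one another. Irf7 (2.16 CPM per kb in KO, 1.83 in WT) and Irf9 (1.70 in KO, 1.20 in WT) stood apart below them, with no library of either reaching the lowest library of another member. The gene body order ran largely the other way, except for Irf3. Irf7 (3.84 CPM per kb in KO, 4.12 in WT) and Irf3 (3.65 in KO, 3.74 in WT) led, and Irf8 was last at 1.07 CPM per kb in KO and 0.694 in WT, the 18.2 percentile of 11841 genes, whose median was 1.40. Irf9, Irf1, Stat3, Irf2 and Stat2 lay between, and library values overlapped between neighbours in the KO order except between Irf3 and Irf9 and between Stat3 and Irf2. Body lengths here and in the ratios per base were taken from RefSeq. For Irf7 this was 3117 bases, shorter than its GENCODE body at 141262806 to 141266381. The order of Irf7 and Irf3 therefore rests on the annotation used.

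**Figure D4:**
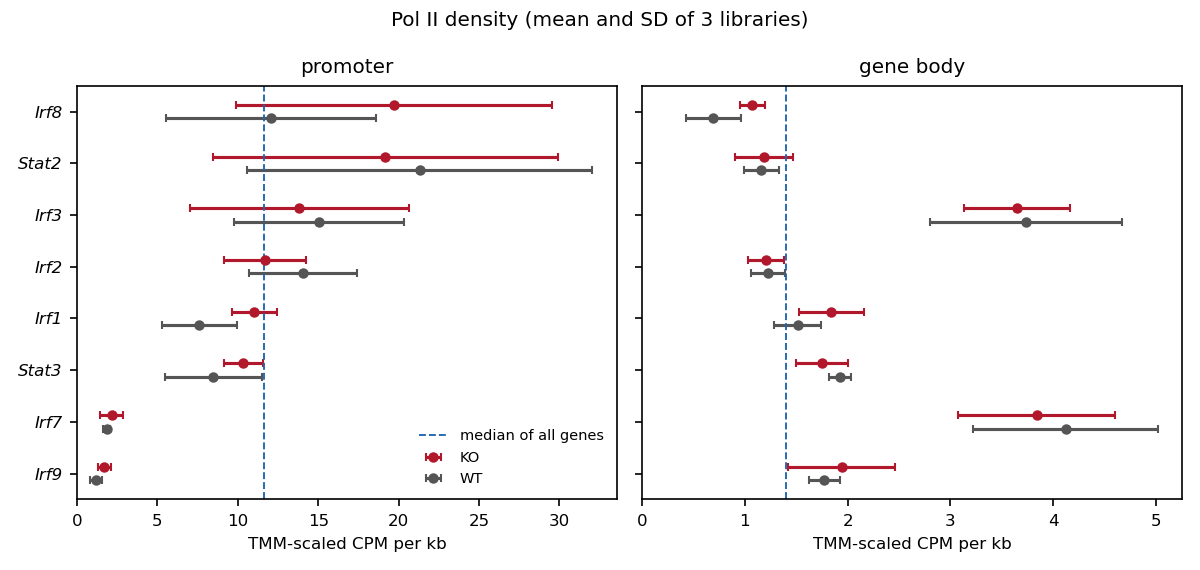
Pol II level (TMM-scaled CPM per kb, linear axes from 0) in the promoter and the gene body of each of the 8 genes, with KO drawn above WT, the mean and SD of 3 libraries, and the median of all genes as a dashed line. Irf7 and Irf9 lie lowest in promoters, with means of 1.20 to 2.16 CPM per kb, and Irf8 lies lowest in gene bodies, at 1.07 CPM per kb in KO and 0.694 in WT.

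The signalling genes around the 8 were read from lists of 138 genes, of which 83 were in the table. The limma fit called 0 of the 83 in any region. At an unadjusted limma p under 0.05, 8 promoters were higher in KO and 0 lower, 5 gene bodies were higher and 0 lower, and 4 TES regions were higher and 4 lower. The shares higher and lower were 7.55% and 2.4% of all promoters, 4.82% and 3.59% of all gene bodies, and 1.4% and 4.84% of all TES regions. These shares are also the background for the list counts that follow. The smallest adjusted limma p was 0.30 in promoters, 0.295 in gene bodies and 0.537 in TES regions, and the median log2 fold changes were 0.10, 0.01 and -0.05. edgeR and DESeq2 also called 0 of the 83 in any region, and in gene bodies each put 4 higher and 0 lower at an unadjusted p under 0.05. Calls here too turned on which pairs were compared, since a library without its partner drops out of the comparison. Without KO replicate 1 or without WT replicate 1, limma called 6 promoters (Ccnd1, Isg20, Mcl1, Myc, Pias4 and Ptpn2), 1 gene body (Junb) and 2 TES regions (Ccnd1 and Vegfa). Over all regions these runs called 546 and 545, against 49 with all libraries. Without KO replicate 2 or WT replicate 2 limma called 1 gene body (Fos), with 143 and 51 called over all regions. These genes are named because the calls fell on them.

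Ligands and receptors come first in the pathway. Of 11 interferon and gp130 ligands 3 were measured (Cntf, Il11 and Ctf1), with gene body log2 fold changes of 0.06, 0.03 and 0.03. Of 12 receptors 7 were measured, with all 7 gene bodies below 0 and a median of -0.11, where 6619 of all 12107 gene bodies were below 0. Of the receptor gene bodies and promoters, 0 had a limma p under 0.05. In TES regions 1 was lower at that level, Il6st, which encodes gp130, at 3.53, 1.73 and 3.26 CPM in KO and 5.08, 2.33 and 4.31 CPM in WT (log2 fold change -0.47 ± 0.19, SE, limma adjusted p = 0.555). It is named because the count fell on it. Among the receptor gene bodies named, the largest shortfall was in Il6ra, the IL-6 receptor. Its gene body was at 21.6, 28.7 and 50.5 CPM in KO and 33.3, 29.2 and 46.1 CPM in WT (log2 fold change -0.17 ± 0.12, SE), with overlap between the groups. The gene body of Il10rb was at -0.16 and that of the interferon receptor gene Ifnar2 at -0.11. All 4 JAK kinases were measured, with 0 at p under 0.05, and Jak2 and Jak3 stood at 0.09 each and Tyk2 at -0.08.

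Of the 20 sensors and adaptors that feed IRF3 and IRF7, 13 were measured and 0 gene bodies had a limma p under 0.05. Ifih1, a sensor of double-stranded RNA, was at -0.12, the kinase Irak4 at -0.09 and the ubiquitin ligase Traf6 at -0.05. Among other STAT genes, the gene bodies of Stat5b and Stat6 were at -0.05 and 0.02, and neither had a limma p under 0.05. All 3 genes of IRF2 binding proteins were measured, and Irf2bpl was at 0.29 ± 0.13 (SE, limma adjusted p = 0.597), Irf2bp1 at 0.24 and Irf2bp2 at 0.03.

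Of 48 interferon response genes, the targets of ISGF3 and the IRFs, 28 were measured. At a limma p under 0.05 their gene bodies gave 0, their promoters 2 higher and 0 lower, and their TES regions 1 higher and 0 lower. The gene body median was 0.03, with 15 above and 13 below 0, and their summed gene body level ranged from 453.9 to 747 CPM in KO libraries and from 413.9 to 809 CPM in WT libraries. Bst2, a membrane tether of budding viruses, was at 0.792, 1.97 and 3.75 CPM in KO and 1.27, 3.36 and 3.90 CPM in WT (log2 fold change -0.48 ± 0.24, SE, limma adjusted p = 0.636). Dtx3l was at -0.21 and Nlrc5, a regulator of MHC class I genes, at -0.13. The 2 higher promoters were those of Isg20 (log2 fold change 1.15 ± 0.38) and Usp18 (0.80 ± 0.26) (SE, limma adjusted p = 0.438 each). The higher TES region was that of Rtp4 (0.65 ± 0.27, SE, limma adjusted p = 0.574). Each was higher in KO in all 3 pairs, and they are named because the counts fell on them. The Isg20 promoter rested on 7 to 45 reads per library.

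Of 19 STAT3 responsive genes 11 were measured, and 3 of their gene bodies were higher in KO at a limma p under 0.05 and 0 lower. They were Junb, Ccnd1 and Fos, a pair of AP-1 subunits and a cyclin, which also respond to growth factor and stress signals. Junb carried 43.0, 44.5 and 65.7 CPM in KO and 35.0, 39.3 and 43.9 CPM in WT, higher in KO in each pair with overlap between the groups (log2 fold change 0.34 ± 0.09, SE, limma adjusted p = 0.295). Ccnd1 was at 0.23 ± 0.07 (SE, limma adjusted p = 0.331) and Fos at 0.45 ± 0.15 (SE, limma adjusted p = 0.438). The list had 9 of 11 gene bodies above 0, with a median of 0.14, where 5488 of all 12107 gene bodies were above 0. The list's TES regions had 3 above and 8 below 0, a median of -0.10, and 1 higher and 2 lower at a limma p under 0.05. TES regions of all genes leaned the same way, with 4169 above and 7938 below 0 and a median of -0.08. Of 17 inhibitors of STAT signalling 13 were measured, with 3 promoters higher at a limma p under 0.05 and 0 lower, and 0 gene bodies. Socs1 was at 0.29 ± 0.14 in the gene body, Pias3 at 0.18 and Pias4 at -0.15. The Pias4 promoter had the other sign, at 2.88, 6.52 and 3.61 CPM in KO and 2.15, 3.36 and 2.03 CPM in WT (log2 fold change 0.76 ± 0.20, SE, limma adjusted p = 0.30), higher in all 3 pairs with overlap between the groups.

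**Figure D5:**
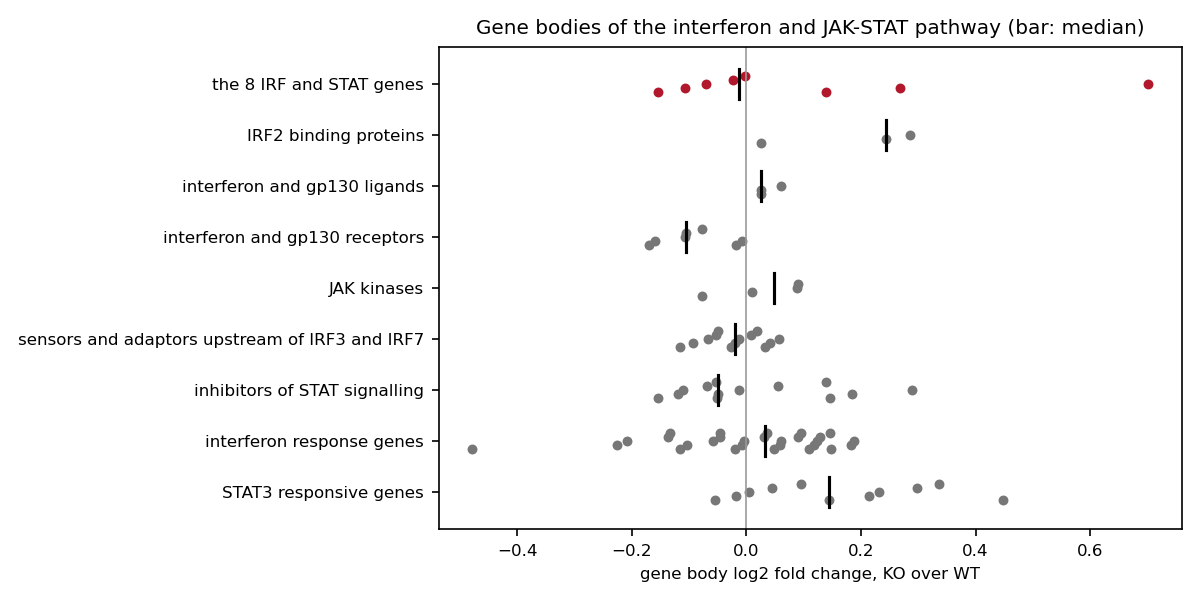
Gene body log2 fold change, KO over WT, of the measured genes of 8 pathway lists, grouped by role (grey points), below the 8 IRF and STAT genes (red points), with a bar at the median of each group and a line at 0. Medians run from -0.11 in the receptors to 0.24 in the IRF2 binding proteins, and Irf8 lies furthest to the right of all the genes shown.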

How the data were processed

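The authors counted reads with HOMER on GRCm38 (mm10) in promoters (400 bases before to 100 after the TSS), gene bodies (100 after the TSS to 100 before the TES) and TES regions (100 before to 2000 after the TES), removed genes without signal in KO cells, and deposited whole-number counts for 12107 genes. The sources used here do not give the annotation they used. The deposited log2 CPM values, made by the authors with TMM and voom, served only as an alternative. No input or spike-in was used here.

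Counts of all 36321 regions were scaled together (TMM, edgeR 4.0.16) and tested with limma 3.58.1 voom in R 4.3.3, two-sided, blocked on the replicate pair, with Benjamini-Hochberg adjustment over all regions. The study's methods describe pairs, and deviations from the group means correlated within each pair (r = 0.561 to 0.874). No libraries of the same genotype were copies of each other. The pausing index added 0.5 to each count, and used genes averaging 10 or more counts in both regions. Log2 fold changes had a typical SE of 0.17 in promoters, 0.09 in gene bodies and 0.20 in TES regions. DESeq2 1.42.0 was an alternative.

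The members and lists were chosen with earlier results of these data known. Of each list at most the 3 genes with the smallest gene body p are named, besides those on which a call or a count fell. Of markers the 2 with the smallest are named, and of likeness the 3 highest correlations. A gene that this rule would name is not reported here. RefSeq matched 11940 of 12107 symbols.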

Additional observations from a re-analysis of the deposited data

How the results depend on the processing

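The count of IRF and STAT regions called was 0 of 24 with limma and was 1 with DESeq2 (which gave 8 of the 24 no adjusted p) and 0 to 2 when a pair or a library was left out. Each call was of Irf8. Over all regions limma called 49, against 18 with scaling on gene bodies, 85 with each region set on its own, 0 without the replicate block, and 11 to 546 when a pair or a library was left out. The pausing calls were 4, against 256 with the trend on the promoter count, 180 with at least 50 counts, 0 without the replicate block, and 12 to 371 when a pair was left out. Without the replicate block the Irf8 gene body kept its log2 fold change of 0.70, with a limma adjusted p of 1. The Stat2 gene body, at -0.0026, was 0.0062 with edgeR, 0.0043 with DESeq2 and 0.0092 on the deposited log2 CPM. Signs also turned when a pair or a library was left out. The log2 fold change then ranged from -0.35 to 0.18 for the Irf1 TES region, -0.08 to 0.0443 for the Irf2 gene body, -0.18 to 0.039 for the Irf3 gene body, -0.0024 to 0.39 for the Irf7 promoter, -0.30 to 0.26 for the Irf7 TES region, -0.10 to 0.31 for the Irf9 gene body, -0.39 to 0.35 for the Irf9 TES region, -0.0735 to 0.0452 for the Stat2 gene body and -0.38 to 0.0867 for the Stat2 TES region. The pausing difference ranged from -0.35 to 0.13 for Irf3 and from -0.13 to 0.16 for Irf8. Without a turn of sign, the promoter log2 fold change ranged from 0.30 to 0.89 for Irf1, 0.27 to 1.11 for Irf8, 0.20 to 0.84 for Irf9 and 0.12 to 0.49 for Stat3. The log2 fold changes of the 3 Irf8 regions stayed above 0 under every alternative run. Few counts limit the promoters of Irf7 and Irf9 most. The cause of these changes was not tested.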
